A study of Mus musculus with 4 samples.

Results

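The collagen gene family was followed across cell classes of the mouse spinal cord with and without injury. Members were taken by symbol alone, as all gene features named Col, a number, the letter a and a number, which gave 44 genes of the 32287 gene features in the matrices. By the kind of assembly their products form, 11 were fibrillar, 8 belonged to the basement membrane group (types IV, XV and XVIII) and 25 were of other kinds. The data were 2 droplet-based single-cell libraries from Cx30-tdTomato mice, in which a tamoxifen-inducible Cre recombinase driven by Cx30 switches on tdTomato, mainly in astrocytes. The animals carried a systemically delivered AAV library of candidate enhancers and were 8 to 12 weeks old when they entered the study. The injured library came from 5 mm of thoracic cord around a contusion at 3 days post-injury by the sample labels (the design text also has 14 dpi beside the contusion, which was not resolved) and the uninjured library from cord without a lesion, each from 1 to 2 pooled animals of each sex, with the meninges taken off and tdTomato-positive cells sorted. There was 1 library per condition, so no difference below was tested, and every interval is a 95% interval for counting error only. What injury, pooling and library preparation contributed to a difference cannot be told apart.

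Collagens are secreted or membrane-bound proteins whose chains wind into a triple helix, and they are assembled in sets of defined chains. Fibrillar collagens such as types I, III and V form the fibres of connective tissue and of scars. Type IV forms the sheet-like network of basement membranes around vessels and beneath the pia, and types XV and XVIII sit in the basement membrane zone. In the healthy central nervous system fibrillar collagen is mostly a product of meningeal and perivascular fibroblasts, while type IV is laid down by endothelial cells, pericytes and fibroblasts.

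Cells with over 500 and under 50000 transcript molecules (UMIs) were kept, 879 of 919 injured and all 4159 uninjured barcodes, with medians of 6816 and 3343 UMIs. Only 7 barcodes occurred in both libraries. Clusters were made without collagen genes and named from marker lists, so a name says only which markers led. The 7 named classes held, injured and uninjured, 411 and 3023 astrocyte-like, 144 and 31 ependymal-like, 126 and 31 microglia-like, 70 and 26 endothelial-like, 43 and 95 fibroblast-like, 41 and 14 oligodendrocyte progenitor (OPC)-like, and 13 and 3 mural-like cells. A further 31 and 936 cells in clusters that combined astrocyte with neuron markers stayed unnamed. All 7 fibroblast markers were detected in fibroblast-like cells of both conditions, and the microglia-like class also carried macrophage markers at 750 and 1001 CPM, the UMIs of a gene scaled to a common total per class. By Y-linked and Xist transcripts, 315 injured cells scored male and 250 female, against 2770 male and 2 female cells in the uninjured library, although both are labelled as pools of both sexes. Values for male cells alone are therefore given where they changed a direction.

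Collagen transcripts took up 545 CPM of the uninjured and 1445 CPM of the injured library, a comparison that also carries the different mix of cells. Fibroblast-like cells were the richest class, with 9191 CPM uninjured (95% Poisson interval 8866 to 9525) and 10448 CPM injured (10214 to 10687). Mural-like cells followed with 2910 CPM in the injured library, from 13 cells. Endothelial-like cells had 547 and 1270 CPM, ependymal-like cells 644 and 776 CPM, and OPC-like cells 369 and 855 CPM, uninjured and injured. Astrocyte-like cells had 366 and 557 CPM. Microglia-like cells had the least, 85.5 and 61.4 CPM, and stood for a class that should lack fibrillar collagen. All 44 members had at least 1 UMI, and 31 reached the 50 UMIs asked of a named gene. The feature for the sorting transgene, tdTomato-WPRE, had 408 CPM uninjured and 2187 CPM injured in astrocyte-like cells. In fibroblast-like cells it reached 1260 and 1926 CPM. The AAV backbone named by the study also carries a WPRE sequence, and whether transcripts of the AAV library were counted under this feature was not tested. Of the 31 named members, the highest CPM lay in fibroblast-like cells for 23 in the uninjured and 17 in the injured library. The 50 UMIs were summed over all classes, and fibroblast-like cells gave 3019 of 8476 uninjured and 7537 of 12282 injured collagen UMIs. Members high in that class thus passed more easily. A like share over all genes was not computed, so these counts describe the named members only. UMIs count 3' ends and are not corrected for transcript length, so levels of different genes are on a count scale.

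**Figure D1:**
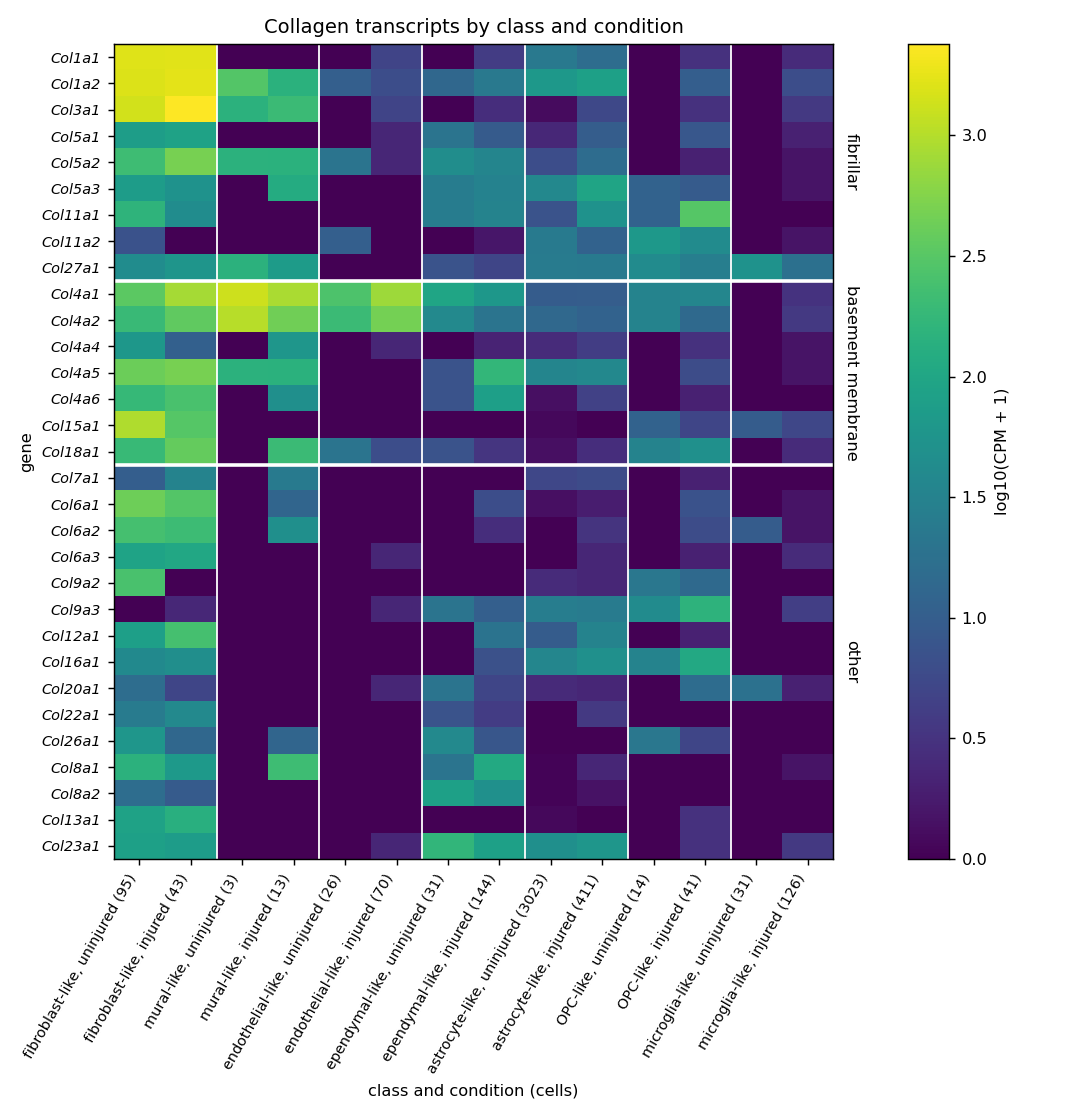
Level of the 31 collagen genes with at least 50 UMIs (rows, by type group) in each class and condition (columns, number of cells in brackets) as log10(CPM + 1). The fibrillar genes Col1a1, Col1a2 and Col3a1 were brightest in fibroblast-like cells and Col4a1 and Col4a2 in mural-like, endothelial-like and fibroblast-like cells. Columns with few cells, such as the 3 uninjured mural-like cells, rest on few UMIs.

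The classes also differed in the kind of collagen. Fibrillar genes made up 56.8% (95% Clopper-Pearson interval 55.1 to 58.6) of collagen UMIs in uninjured and 62.5% (61.3 to 63.5) in injured fibroblast-like cells. In endothelial-like cells the basement membrane group made up 89.7% (78.8 to 96.1) and 97.9% (96.8 to 98.7), nearly all of it type IV. In ependymal-like cells the membrane-bound kind, all of it Col23a1, contributed 25.5% (17.4 to 35.1) uninjured and 10.6% (8.95 to 12.3) injured, against 13.3% and 10.7% in astrocyte-like cells. In the ependymal-like class the basement membrane group made up 24.5% (16.5 to 34.0) of collagen UMIs in the uninjured and 43.4% (40.7 to 46.1) in the injured library. In astrocyte-like cells fibril-associated genes contributed 20.04% and 20.48%, uninjured and injured. In injured OPC-like cells they contributed 36.2% (32.9 to 39.6).

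**Figure D2:**
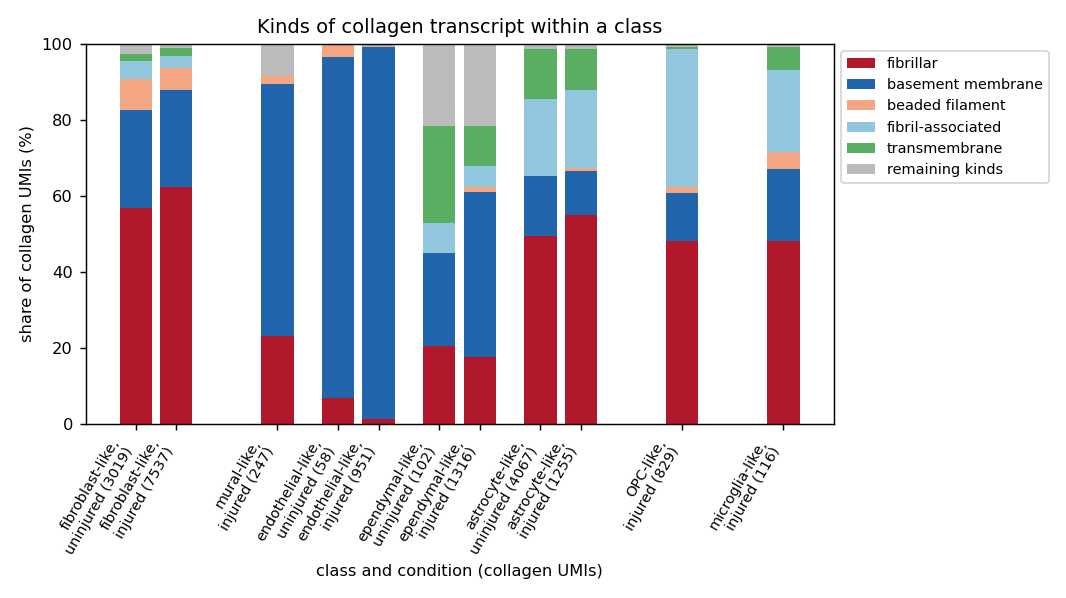
Share of collagen UMIs (percent) by kind of collagen in each class and condition with at least 50 collagen UMIs (total in brackets). Endothelial-like bars are almost wholly basement membrane collagen, fibroblast-like bars are mostly fibrillar, and the remaining kinds, here type VIII, are widest in ependymal-like cells.

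In fibroblast-like cells the 2 chains of type I collagen stayed level between conditions while type III was higher after injury. Col1a1 (chromosome 11: 94936224-94953042, GRCm38) had 1629 CPM uninjured and 1675 CPM injured, a ratio of 1.03 (0.928 to 1.14). Col1a2 had 1595 and 1741 CPM, a ratio of 1.09 (0.985 to 1.21). The 2 chains thus stayed close to equal UMI numbers, 0.962 Col1a1 UMIs per Col1a2 UMI in the injured and 1.02 in the uninjured library. Col3a1 had 1385 CPM uninjured and 2391 CPM injured, a ratio of 1.73 (1.56 to 1.92), and was found in 40 of 43 injured and 80 of 95 uninjured cells. Among the minor fibrillar chains that join type I fibres, Col5a2, which lies beside Col3a1 on chromosome 1, was higher past 2-fold, from 210 to 478 CPM (ratio 2.28, 1.75 to 2.99). Its partner chain Col5a1 had 76.1 and 88.7 CPM (ratio 1.17, 0.724 to 1.93). Col11a1, a chain of the type XI collagen of cartilage, was lower, from 158 to 42.98 CPM (ratio 0.271, 0.168 to 0.432). The fibrillar group as a whole came to 5224 CPM uninjured (4980 to 5477) and 6525 CPM injured (6340 to 6714), a log2 ratio of 0.32 (0.24 to 0.40).

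Basement membrane genes of fibroblast-like cells divided by chain. Col4a1 and Col4a2, which encode the chains of the common type IV network, had 335 and 195 CPM uninjured and 844 and 359 CPM injured. Their ratios were 2.52 (2.05 to 3.12) and 1.84 (1.40 to 2.46), so only Col4a1 passed 2-fold. Col18a1, the source of endostatin, went from 186 to 380 CPM (ratio 2.05, 1.54 to 2.75). Col15a1, which encodes the related type XV collagen, moved the other way, from 959 to 304 CPM (ratio 0.317, 0.265 to 0.377). Col4a4, a chain of the specialised type IV network of the kidney glomerulus, was also lower, with 20 UMIs uninjured and 7 injured (ratio 0.159, 0.0569 to 0.392). The group sum hid this split, with 2372 CPM uninjured, 2645 CPM injured and a log2 ratio of 0.16 (0.04 to 0.28).

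Among the other kinds, Col12a1, a fibril-associated collagen that decorates type I fibres, was higher, from 79.2 to 237 CPM (ratio 2.99, 1.97 to 4.72). Col7a1, the anchoring fibril collagen, was also called higher but on 3 uninjured and 23 injured UMIs (ratio 3.49, 1.05 to 18.2). Col9a2, which is best known from cartilage, had 84 UMIs over 31 of 95 uninjured cells and 0 in the injured library. With 3 counts over the group in place of 0 it was 61.5-fold lower there, and the interval of the ratio reached up to 0.0204. The injured barcodes above the UMI limit described below also had 0. Col8a1 was lower, from 149 to 66.5 CPM (ratio 0.446, 0.293 to 0.678), with 39.6% of its injured UMIs in 1 cell, and so was Col26a1, from 57.8 to 12.5 CPM (ratio 0.216, 0.0859 to 0.5003). The type VI chains, which form beaded filaments near cell surfaces, stayed within 2-fold among cells under the UMI limit. Col6a1 had 426 and 294 CPM, Col6a2 237 and 209 CPM, and Col6a3 91.3 and 107 CPM, uninjured and injured. The group of other collagens had a log2 ratio of -0.32 (-0.48 to -0.16).

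In all, 27 of the 44 members had the 20 UMIs over both conditions asked of a comparison in fibroblast-like cells. Of these, 5 (18.5%) were higher past 2-fold in the injured library, where 12.9% of all 7357 genes compared were higher, and 6 (22.2%) were lower, where 10.2% of all genes were. The median log2 ratio was 0.22 over these members and 0.06 over all genes compared. Mural markers summed to 39.6 CPM in uninjured and 171 CPM in injured fibroblast-like cells and astrocyte markers to 2079 and 1058 CPM, and their part in these ratios was not tested. Past 2-fold is a rule of size with 1 CPM added to both sides and not a test.

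These values depended on the upper limit of 50000 UMIs per barcode, which the study set. It removed 40 injured and no uninjured barcodes, and 38 of the 40 joined the fibroblast-like class when the limit was lifted. They had a median of 74526 UMIs and carried 81.5% of the UMIs of the 81 injured fibroblast-like cells then present. Type I collagen was alike on both sides of the limit, with Col1a1 at 1639 CPM above and 1675 CPM below it. The chain pair Col4a5 and Col4a6 was not. Col4a5 had 46.4 CPM above and 487 CPM below the limit (ratio 0.0954, 0.0782 to 0.116), and Col4a6 had 25.4 and 252 CPM (ratio 0.101, 0.0765 to 0.132). Col13a1, a membrane-bound collagen, had 17.9 and 134 CPM (ratio 0.133, 0.0941 to 0.186). Col22a1, which is found at tissue junctions, had 5 UMIs above the limit and 27 below it. In contrast, Col6a3 was 2.02 times higher above the limit (1.60 to 2.59).

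With all 81 injured cells the comparison with uninjured cells changed for some members and not for others. Col1a1 (ratio 1.01), Col3a1 (1.46, 1.33 to 1.61), Col5a2 (2.66, 2.09 to 3.43), Col4a1 (2.44, 2.02 to 2.98) and Col15a1 (0.163, 0.142 to 0.188) kept their direction. Col4a5 had a ratio of 0.306 (0.253 to 0.372) and Col4a6 of 0.368 (0.277 to 0.496), against 1.17 (0.955 to 1.43) and 1.38 (1.03 to 1.88) under the limit. Col12a1 (1.496, 1.01 to 2.31) and Col18a1 (1.22, 0.938 to 1.60) were then within 2-fold. Of the type VI chains, Col6a1 was then lower (0.421, 0.351 to 0.509) and Col6a3 higher (2.14, 1.49 to 3.20). Of 28 members compared, 4 were higher, where 20.9% of all genes were, and 11 were lower, where 20.3% were, and the basement membrane group turned to a log2 ratio of -0.46. The barcodes above the limit had tdTomato-WPRE at 1852 CPM against 1926 CPM below it, and all 7 fibroblast markers, summing to 4238 CPM against 11211 CPM. Mural markers summed to 1071 CPM against 171 CPM and macrophage markers to 69.0 CPM against 11.1 CPM, and their part in these differences was not tested. Among male cells alone, with the limit, the group of other collagens turned to a log2 ratio of 0.27. Over cells of both sexes with the limit, type IV taken alone had a log2 ratio of 0.68.

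**Figure D3:**
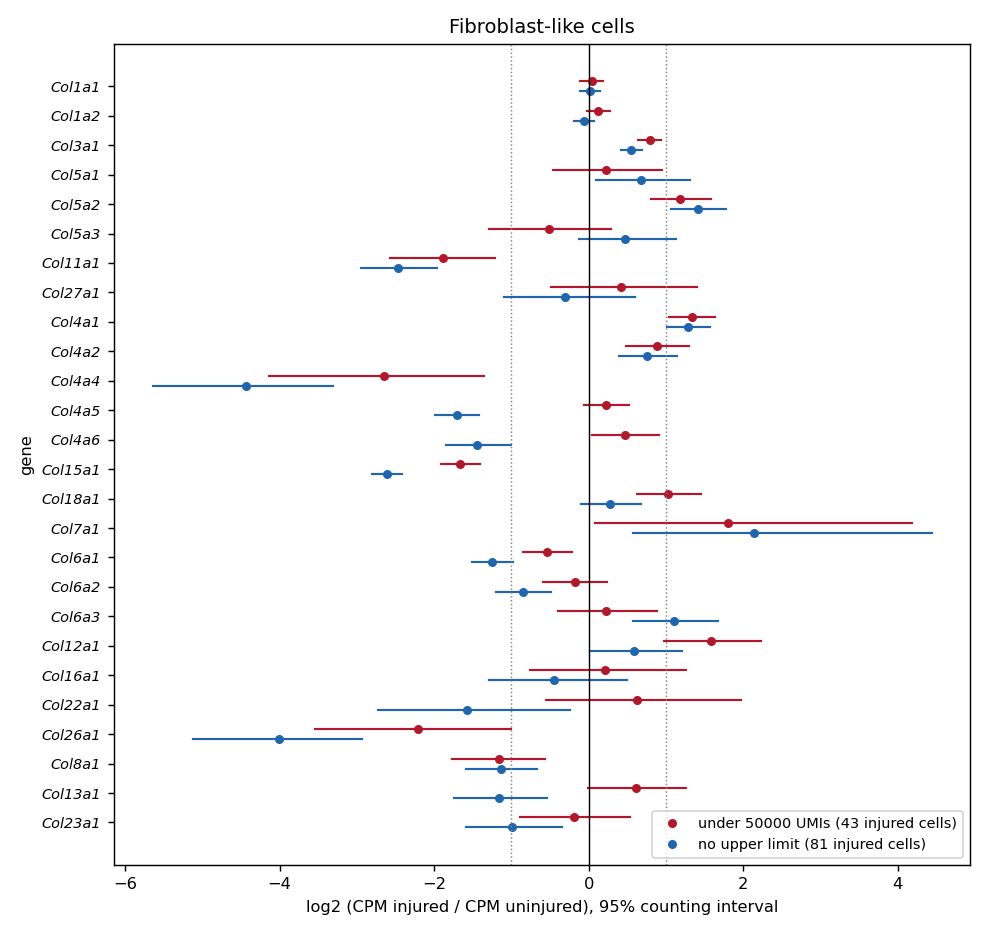
log2 ratio of CPM between injured and uninjured fibroblast-like cells for each collagen gene compared (rows), with the 95% counting interval as a line. Red points use cells under 50000 UMIs and blue points all cells, dotted lines mark 2-fold, and Col9a2, at 0 UMIs after injury, is not drawn. Red and blue overlap for Col1a1, Col4a1 and Col5a2 and lie apart for Col4a5 and Col4a6.

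Genes that fold, cut, cross-link or bind collagen were read from 6 lists in the same fibroblast-like cells. Their counts are to be read against the 12.9% of all genes that were higher and the 10.2% that were lower. Among enzymes and chaperones of folding, 2 of 18 compared genes (11.1%) were higher and 1 (5.56%) was lower, no more than over all genes. The collagen chaperone Serpinh1 had the most, 770 CPM uninjured and 1195 CPM injured (ratio 1.55, 1.35 to 1.79). Plod2, which hydroxylates the lysines used for cross-links, went from 67.0 to 218 CPM (ratio 3.25, 2.07 to 5.33), and P3h4 from 94.4 to 41.6 CPM. Of the propeptide and cross-linking genes 3 of 7 (42.9%) were higher and 0 lower. The most frequent, the proteinase enhancer Pcolce, had 813 and 858 CPM. The higher genes included the lysyl oxidase Lox, from 24.4 to 183 CPM (ratio 7.51, 3.70 to 17.8), and the procollagen proteinase Bmp1, from 18.3 to 98.4 CPM (ratio 5.39, 2.36 to 15.2).

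Among genes of collagen breakdown, 2 of 8 (25%) were higher and 1 (12.5%) was lower. Timp1, an inhibitor of matrix metalloproteinases, went from 3 to 591 UMIs (ratio 89.7, 30.5 to 436), while the gelatinase Mmp2 went from 174 to 67.9 CPM (ratio 0.391, 0.262 to 0.584). Of 9 fibril partners 3 (33.3%) were higher, Bgn, Fn1 and Postn, and 2 (22.2%) were lower, Dcn and Ogn. The small proteoglycans among them thus went both ways. Bgn had 441 and 1647 CPM (ratio 3.73, 3.14 to 4.46), whereas Dcn had 22510 and 8316 CPM (ratio 0.369, 0.357 to 0.382). Of 13 basement membrane partners, led by Sparc at 3038 and 2670 CPM, 2 (15.4%) were higher, near the share over all genes, with Lama1 at 225 and 455 CPM (ratio 2.02, 1.56 to 2.63). The other direction held 3 (23.1%), with the laminin gene Lama2 at 1662 and 624 CPM (ratio 0.375, 0.331 to 0.426). No collagen receptor of 3 compared passed 2-fold, and the most frequent, the integrin chain Itgb1, had 314 and 561 CPM.

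As a class, astrocyte-like cells carried both chains of type I collagen, Col1a2 more than Col1a1, with almost no type III. Astrocyte-like cells with UMIs of both chains were few, 52 of 3023 uninjured and 12 of 411 injured. Of 219 uninjured cells with Col1a1, 23.7% also had Col1a2, against 18.5% of all uninjured astrocyte-like cells. Of 32 injured cells with Col1a1 it was 37.5%, against 22.6% of all. In uninjured fibroblast-like cells 91.9% of those with Col1a1 also had Col1a2, against 89.5% of all. Col1a2 was at 1595 CPM there, and the part of its level in this gap between the classes was not tested. In astrocyte-like cells Col1a2 had 684 UMIs uninjured and 187 injured, 61.5 CPM (57.0 to 66.3) and 82.9 CPM (71.5 to 95.7). Col3a1 had 3 and 10 UMIs in the same cells. The promoters of Col1a2 and Col3a1 are given from 250 bases before to 50 bases after the RefSeq start (GRCm38.p6). They are shown because astrocyte-like cells had Col1a2 with almost no Col3a1, while fibroblast-like cells had both. Capitals mark the GC box GGGCGG, the CCAAT box and the TATA box spelled TATAAA, each searched on both strands.
Col1a2, chr6:4505368-4505667, plus strand: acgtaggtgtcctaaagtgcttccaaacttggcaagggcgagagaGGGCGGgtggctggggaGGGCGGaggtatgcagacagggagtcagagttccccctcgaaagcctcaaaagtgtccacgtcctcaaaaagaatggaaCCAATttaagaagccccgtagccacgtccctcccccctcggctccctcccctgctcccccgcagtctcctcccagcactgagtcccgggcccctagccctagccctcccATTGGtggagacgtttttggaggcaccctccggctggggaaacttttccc
Col3a1, chr1:45311288-45311587, plus strand: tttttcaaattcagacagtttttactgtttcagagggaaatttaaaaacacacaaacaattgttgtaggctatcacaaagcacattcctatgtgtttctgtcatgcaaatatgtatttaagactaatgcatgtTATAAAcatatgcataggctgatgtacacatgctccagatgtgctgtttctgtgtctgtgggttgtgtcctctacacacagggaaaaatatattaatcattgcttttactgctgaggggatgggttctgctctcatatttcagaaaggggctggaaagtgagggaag
The Col1a2 window held 2 GC boxes and 2 CCAAT boxes, and the Col3a1 window 1 TATA box. Of all 32817 windows of this length, 35.6% held a GC box, 37.4% a CCAAT box and 13.6% a TATA box. Neither window held the AP-1 letters TGACTCA on either strand, which 5.2% of all windows held, and no matches overlapped in either window. These matches are a description of the letters, and no binding was measured.

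The ratio of UMIs of these genes within a class differed between classes. Fibroblast-like cells had 1.15 Col1a2 UMIs per Col3a1 UMI uninjured (1.01 to 1.31) and 0.728 injured (0.677 to 0.783). Astrocyte-like cells had 228 (77.7 to 1108) and 18.7 (9.94 to 39.6). Against the fibroblast proteoglycan Dcn, fibroblast-like cells had 0.0709 and 0.209 Col1a2 UMIs per Dcn UMI and astrocyte-like cells 21.4 (14.998 to 31.5) and 15.6 (8.71 to 30.7). Injured microglia-like cells had 2.00 per Col3a1 UMI (0.623 to 7.46) and 0.256 per Dcn UMI (0.114 to 0.523). The part of free RNA in these counts was not tested. The partner chain Col1a1 was less frequent in astrocyte-like cells, with 0.357 UMIs per Col1a2 UMI uninjured (0.307 to 0.413) and 0.182 injured (0.122 to 0.263).

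By cell, Col1a2 was found in 18.5% (17.2 to 19.96) of uninjured and 22.6% (18.7 to 27.0) of injured astrocyte-like cells, at median depths of 3290 and 3703 UMIs. In injured microglia-like cells, which were deeper at a median of 14070 UMIs, it was found in 9 of 126 cells, 7.14% (3.32 to 13.1). In uninjured microglia-like cells, at a median of 3169 UMIs, it was found in 0 of 31, where 3 cells in place of 0 would be 9.68%. With each cell thinned to 1000 UMIs the astrocyte-like shares were 6.46% (5.5998 to 7.41) and 8.24% (5.67 to 11.5) and the injured microglia-like share was 1.65% (0.201 to 5.84). The thinning left out 66 uninjured and 35 injured astrocyte-like cells. All 3 uninjured astrocyte-like clusters carried Col1a2, at 55.6, 61.7 and 63.6 CPM, so it did not belong to 1 of them. Counts may include unspliced transcripts, and the annotated gene Gm43921 overlaps Col1a2 on the same strand.

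**Figure D4:**
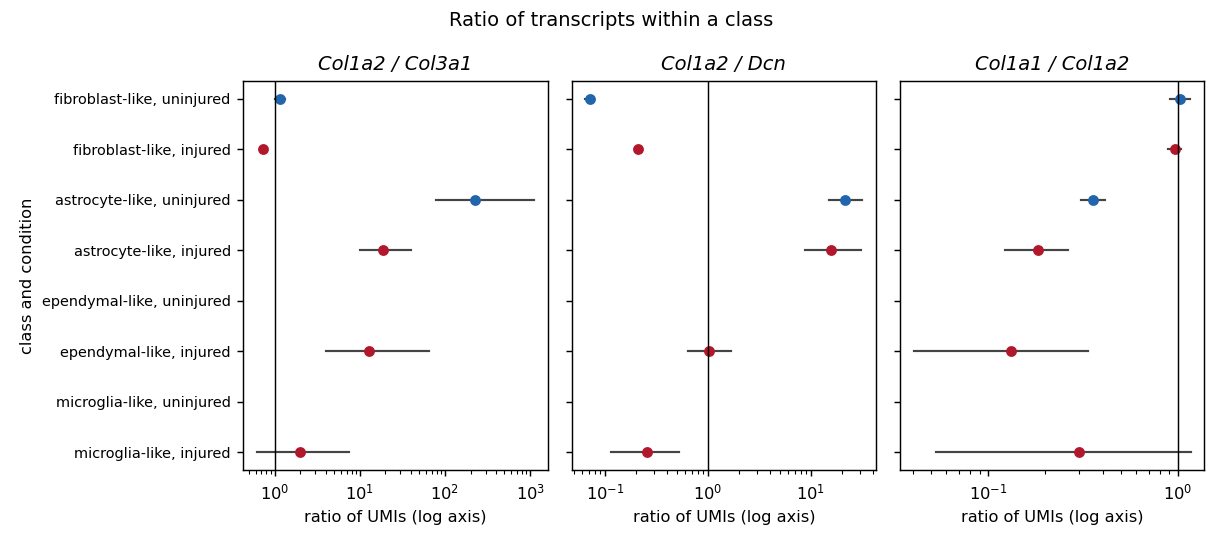
Ratio of UMIs of 2 genes within a class and condition, on a log axis, with its 95% counting interval (blue uninjured, red injured, rows with under 10 UMIs left empty). Astrocyte-like points lie to the right of fibroblast-like points for Col1a2 over Col3a1 and over Dcn and to the left for Col1a1 over Col1a2.

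After injury the minor fibrillar chains were higher in astrocyte-like cells. Col11a1 had 6.29 CPM uninjured and 52.3 CPM injured (ratio 8.32, 6.14 to 11.3). Col5a1 had 1.35 and 8.87 CPM (ratio 6.58, 3.20 to 13.8), Col5a2 5.21 and 14.6 CPM (ratio 2.81, 1.77 to 4.38) and Col5a3 36.6 and 93.1 CPM (ratio 2.55, 2.14 to 3.01). All of these encode chains of the regulatory types V and XI, which in connective tissue limit the width of fibres. Col12a1 was higher too, from 8.63 to 31.9 CPM (ratio 3.70, 2.69 to 5.07), although 1 cell held 30.6% of its injured UMIs. The second chain of type XI went the other way, with Col11a2 at 23.4 and 10.6 CPM (ratio 0.455, 0.287 to 0.693).

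The main fibrillar chains moved less, with Col1a1 at a ratio of 0.687 (0.465 to 0.987) and Col1a2 at 1.35 (1.14 to 1.59). The 4 basement membrane genes compared, Col4a1, Col4a2, Col4a4 and Col4a5, stayed within 2-fold, with Col4a5 at 33.1 and 36.4 CPM and a log2 ratio of 0.16 (-0.11 to 0.42) for the group, which turned to -0.13 in male cells alone. Col4a6, below the 20 UMIs asked, had 4 UMIs uninjured and 8 injured (ratio 9.87, 2.64 to 44.8). The membrane-bound Col23a1 had 47.9 and 59.0 CPM, and the fibril-associated Col16a1 34.3 and 49.2 CPM and Col9a3 26.4 and 24.8 CPM. The fibrillar group had 181 CPM (173 to 189) uninjured and 306 CPM (284 to 330) injured, a log2 ratio of 0.76 (0.63 to 0.88).

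Of 19 members with 20 UMIs in astrocyte-like cells, 5 (26.3%) were higher past 2-fold, where 13.2% of all 13277 genes compared were, and 1 (5.26%) was lower, where 9.04% were. The median log2 ratio was 0.17 over these members and -0.01 over all genes compared. With finer clusters, at Leiden resolution 1.0, Col5a1, Col5a2, Col12a1 and Col11a2 came within 2-fold and 2 members, Col5a3 and Col11a1, were higher. Different clusters held the class in the 2 conditions. A cluster led by Gfap and Lcn2 held 338 of the 411 injured and 14 of the 3023 uninjured cells, and the other 3 clusters held 42.9%, 31.8% and 24.9% of the uninjured cells. Mural markers, of which Tagln was among the leading genes of the injured cluster, summed to 172 CPM injured and 56.5 CPM uninjured. Fibroblast markers summed to 30.2 CPM injured and 37.2 CPM uninjured, and the part of either in these ratios was not tested.

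The partner lists of astrocyte-like cells are given beside the 13.2% of all genes that were higher and the 9.04% that were lower, and with 5 to 21 genes each their shares are coarse. All 21 folding genes were compared, with 4 (19%) higher, among them the prolyl hydroxylases P4ha3, from 23.8 to 111 CPM (ratio 4.65, 3.90 to 5.55), and P3h2 (ratio 6.58, 3.995 to 10.9), and P3h3 lower (ratio 0.422, 0.288 to 0.600). Of 7 cross-linking genes 2 (28.6%) were higher, with Bmp1 at 40.3 and 118 CPM (ratio 2.94, 2.52 to 3.43), and 1 was lower. Timp1 had 1 uninjured and 701 injured UMIs (ratio 3458, 619 to 136781), 1 of 2 higher among 6 genes of breakdown. Both discoidin domain receptors, which are kinases that bind collagen, were higher, Ddr1 at a ratio of 2.51 (2.17 to 2.90) and Ddr2 at 2.76 (1.49 to 4.97). Of 5 fibril partners 4 (80%) were higher, with Fn1 at 2 and 47 UMIs and Thbs2 at 20.9 and 82.0 CPM (ratio 3.93, 3.22 to 4.79). Of 11 basement membrane partners 3 (27.3%) were higher and 2 (18.2%) lower, with Pxdn at a ratio of 3.18 (2.45 to 4.09) and Lama2 at 0.479 (0.432 to 0.530).

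Ependymal-like cells line the central canal, and the pair Col4a5 and Col4a6 stood out among their collagens after injury. Col4a5 had 1 UMI in 31 uninjured cells and 293 in 144 injured cells, 6.31 and 173 CPM (ratio 27.4, 4.88 to 1086). Col4a6 had 1 and 136 UMIs, 6.31 and 80.2 CPM (ratio 12.7, 2.24 to 506). Both intervals are wide because 158504 UMIs stood behind the uninjured cells and 1694907 behind the injured cells. The UMIs came from many cells, 77 of 144 for Col4a5 and 36 for Col4a6, with at most 12.6% and 11.0% of them in 1 cell. Col4a5 was found in 53.5% (45.0 to 61.8) of injured ependymal-like cells, or 10.5% (5.991 to 16.7) after thinning to 1000 UMIs, against 1 of 126 injured microglia-like cells. The pair kept a like ratio in the classes where both were frequent, 2.15 Col4a5 UMIs per Col4a6 UMI in injured ependymal-like cells (1.75 to 2.66) and 2.28 (1.67 to 3.15) in uninjured fibroblast-like cells. In uninjured astrocyte-like cells it was 92 (35.6 to 339), so there Col4a5 was present with almost no Col4a6. Injured astrocyte-like cells had a smaller ratio, 10.25 (4.96 to 24.5), on 82 UMIs of Col4a5 and 8 of Col4a6.

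The genes of this pair lie head to head on the X chromosome, with 1343 bases between their RefSeq starts, and their promoters are shown as the pair that moved together in ependymal-like and deep fibroblast-like cells and parted in astrocyte-like cells.
Col4a6, chrX:141474027-141474326, minus strand: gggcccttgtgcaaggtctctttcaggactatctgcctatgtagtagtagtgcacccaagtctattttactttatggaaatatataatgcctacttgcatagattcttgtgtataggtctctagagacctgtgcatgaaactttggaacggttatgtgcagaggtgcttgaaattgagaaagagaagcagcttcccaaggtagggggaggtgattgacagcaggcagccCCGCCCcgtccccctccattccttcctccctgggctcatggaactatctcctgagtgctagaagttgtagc
Col4a5, chrX:141475169-141475468, plus strand: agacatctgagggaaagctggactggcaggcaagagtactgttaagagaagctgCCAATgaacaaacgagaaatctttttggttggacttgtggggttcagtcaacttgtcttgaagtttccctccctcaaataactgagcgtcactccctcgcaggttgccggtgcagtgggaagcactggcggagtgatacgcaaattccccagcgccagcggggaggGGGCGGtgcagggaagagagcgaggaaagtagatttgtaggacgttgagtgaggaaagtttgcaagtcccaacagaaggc
Each held 1 GC box and Col4a5 also 1 CCAAT box, marked in capitals as above. The windows do not overlap, and neither held a TATA box or the AP-1 letters. The GC content was 48.3% for Col4a6 and 52.7% for Col4a5.

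Type VIII collagen, a short-chain network protein known from vessel walls and the cornea, divided by chain in ependymal-like cells. Col8a1 went from 3 to 189 UMIs, 18.9 and 112 CPM (ratio 5.89, 1.99 to 28.8), while Col8a2 had 82.0 and 48.4 CPM (ratio 0.590, 0.327 to 1.15). Col23a1 was highest in this class in both conditions, at 164 CPM uninjured and 82.0 CPM injured, a ratio of 0.49996 (0.327 to 0.792) that the added 1 CPM kept just inside 2-fold. The common type IV chains were not higher, with Col4a1 at 94.6 and 61.4 CPM (ratio 0.648, 0.376 to 1.2) and Col4a2 at 37.9 and 18.9 CPM (ratio 0.499, 0.206 to 1.46). Col12a1 had 0 and 31 UMIs, which against 3 counts allows no fold above 1.

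Of 12 members compared in ependymal-like cells, 4 (33.3%) were higher past 2-fold, Col12a1 included, where 12.7% of all 9438 genes compared were. Lower were 0, where 9.56% of all genes were. The 20 UMIs were summed over both conditions, with 1694907 UMIs injured and 158504 uninjured. Genes low in the injured library could thus seldom be compared, so these counts lean to the higher side. With 3 counts in place of 0 and no CPM added, 3 members were higher and 2 lower. The median log2 ratio was 0.30 over these members and -0.07 over all genes, or 0.12 and -0.11 with 3 counts in place of 0. The basement membrane group went from 158 CPM (102 to 233) to 337 CPM (310 to 366), a log2 ratio of 1.09 (0.52 to 1.73), while the fibrillar group had 132 and 138 CPM. Fibroblast markers summed to 12.6 CPM uninjured and 36.6 CPM injured, and Dcn had 0 and 37 UMIs, whose part was not tested. Astrocyte markers summed to 2524 and 1494 CPM. Among partners, Plod2 was higher (ratio 2.07, 1.22 to 3.83) as 1 of 17 folding genes, and of 7 basement membrane partners 1 was higher and 1 lower.

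**Figure D5:**
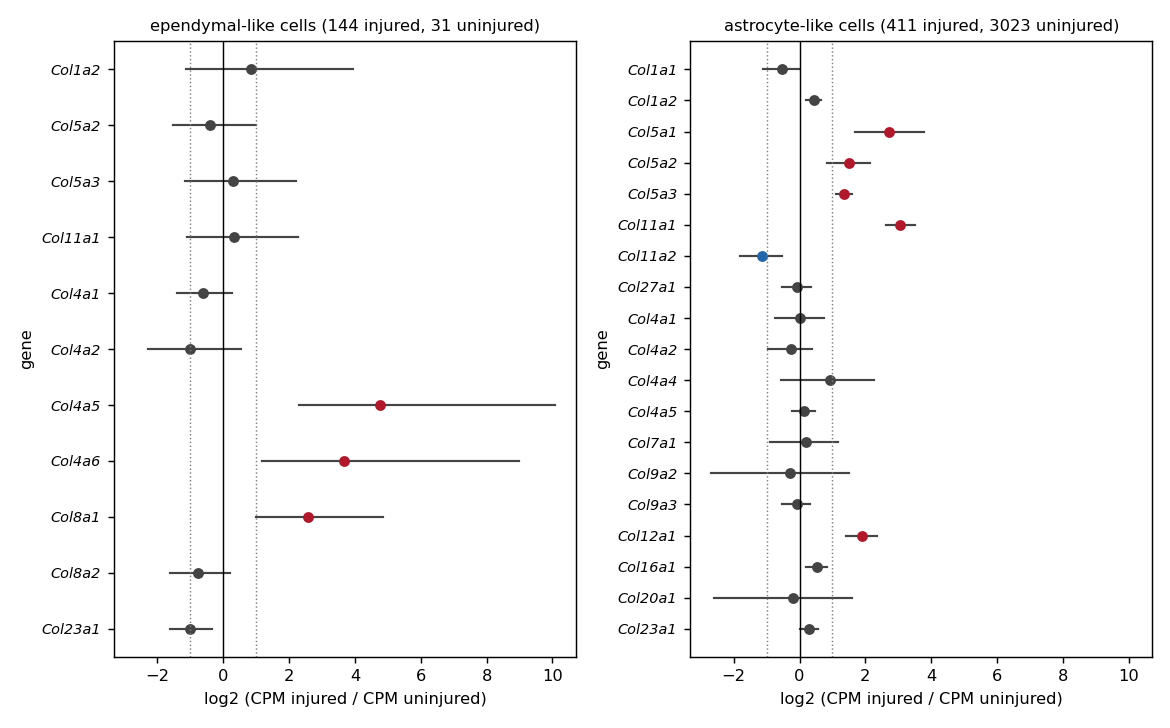
log2 ratio of CPM between injured and uninjured cells for each collagen gene compared (rows) in ependymal-like (left) and astrocyte-like cells (right), lines giving the 95% counting interval. Genes past 2-fold with 1 CPM added are red where higher and blue where lower, and Col12a1 in ependymal-like cells, at 0 UMIs uninjured, is not drawn. Col4a5, Col4a6 and Col8a1 lie to the right in ependymal-like cells and Col11a1 in astrocyte-like cells.

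In endothelial-like cells nearly all collagen was Col4a1 and Col4a2. Endothelial-like cells had 274 and 769 CPM of Col4a1 and 198 and 465 CPM of Col4a2, uninjured and injured. The ratios were 2.81 (1.94 to 4.24) and 2.35 (1.51 to 3.84) and rest on 29 and 21 uninjured UMIs in 26 cells, a class below the 30 cells asked for a comparison. Mural markers summed to 311 CPM in uninjured and 34.7 CPM in injured endothelial-like cells and astrocyte markers to 594 and 90.8 CPM. The part of either in these ratios was not tested. In injured mural-like cells the basement membrane group made up 66.4% (60.1 to 72.3) of collagen UMIs and fibrillar genes 23.1% (17.97 to 28.8). They had 895 CPM of Col4a1 and 448 CPM of Col4a2 in 13 cells, with 200 CPM of Col3a1 and 212 CPM of Col8a1. Endothelial-like cells had neither Col4a5 nor Col4a6, with 0 UMIs of each in 748963 injured UMIs, where 3 counts in place of 0 would be 4.01 CPM. Injured mural-like cells had 12 and 4 UMIs.

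Col4a1 and Col4a2 are also read from one shared promoter on chromosome 8, in opposite directions, with starts that overlap by 22 bases. The 78 bases common to both RefSeq windows are shown on the plus strand because the pair carried most of the collagen of endothelial-like cells.
Col4a1 and Col4a2, chr8:11312777-11312854: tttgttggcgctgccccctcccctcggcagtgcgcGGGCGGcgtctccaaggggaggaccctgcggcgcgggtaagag
This stretch has 73.1% G and C and holds 1 GC box in capitals. Despite the shared start region the 2 genes did not have one fixed ratio of UMIs. It was 1.66 Col4a1 UMIs per Col4a2 UMI in injured endothelial-like cells (1.45 to 1.90), 2.35 in injured fibroblast-like cells (2.03 to 2.73) and 3.25 in injured ependymal-like cells (2.17 to 4.99). In uninjured astrocyte-like cells it was 0.683 (0.522 to 0.891). The 2 genes overlap only at their starts, whereas UMIs count 3' ends. Gm15418 overlaps Col4a1 and Gm15419 overlaps Col4a2 on the opposite strand, and Gm44716 overlaps Col4a1 on the same strand. What these added to the counts was not tested.

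The most frequent collagens of OPC-like cells included chains known from cartilage. In the injured library Col11a1 had 307 CPM, Col9a3 150 CPM, Col16a1 108 CPM, Col18a1 48.5 CPM and Col11a2 42.3 CPM. Col11a1 was found in 32 of 41 cells and Col9a3 in 35. Injured astrocyte-like cells also had these genes, with Col11a1 at 52.3 CPM, Col16a1 at 49.2 CPM and Col9a3 at 24.8 CPM, and Col18a1 was higher in injured fibroblast-like cells, at 380 CPM. Injured microglia-like cells had 6 UMIs of Col9a3 and 0 of Col11a1 and Col16a1. The 14 uninjured cells gave 1 UMI of Col11a1, 4 of Col9a3 and 3 of Col16a1, so the class was below the 30 cells asked. The ratio for Col11a1 was 29.2 with an interval from 5.19 to 1155. Fibroblast markers summed to 16.5 CPM in injured OPC-like cells and Col1a1 had 2 UMIs.

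In microglia-like cells only 1 member, Col27a1, a fibrillar collagen of cartilage, reached 20 UMIs over both conditions. It had 6 uninjured and 32 injured UMIs, 51.3 and 16.9 CPM (ratio 0.330, 0.136 to 0.965). It was thus 1 of 1 lower, where 16% of the 8093 genes compared were lower and 19.3% were higher. Injured microglia-like cells had 3 UMIs of Col1a1, 10 of Col1a2 and 5 of Col3a1 in 1890042 UMIs, the level against which fibrillar collagen of other classes was read.

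The 13 members under 50 UMIs had between 3 and 39 UMIs over both libraries. They were the fibrillar Col2a1 and Col24a1, the type IV chain Col4a3 and the other kinds Col6a4, Col6a5, Col6a6, Col9a1, Col10a1, Col14a1, Col17a1, Col19a1, Col25a1 and Col28a1. None reached 20 UMIs in a class that was compared. Col9a1, a fibril-associated chain of cartilage, had 22 of its 29 UMIs in 16 of the 41 injured OPC-like cells. Col2a1, the main cartilage collagen, had 16 UMIs in 8 uninjured and 0 in injured fibroblast-like cells. With 3 counts in place of 0 it was 11.7-fold lower, and the interval of the ratio reached up to 0.118. Col4a3 had 12 UMIs in uninjured and 7 in injured fibroblast-like cells (ratio 0.266, 0.0886 to 0.732), and 12 in injured mural-like cells. The unnamed cells of the uninjured library resembled the astrocyte-like cells in collagen, with 322 CPM in all, 167 UMIs of Col1a2 and 2 of Col3a1.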

How the data were processed

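The authors deposited a count matrix of UMIs for each 10x 3' library, made with Cell Ranger 8.0.1 according to the processing notes and 7.1.0 according to the file headers, against mm10. The counts were used as deposited. Cells with over 500 and under 50000 UMIs were normalised to 10000, and 2000 variable genes without collagens gave 15 principal components, 15 neighbours and Leiden clusters at resolution 0.5 (scanpy 1.11.5). Clusters were named from marker lists by a scoring rule set after its first output was seen, and no doublets were removed. The members and lists were chosen with earlier results of these data known, and no value is independent support for them. UMIs were summed per class and condition. Genes with 20 UMIs over both conditions, in the 4 classes with 30 cells in each, were called past 2-fold with 1 CPM added. This minimum favours genes high in the condition with more UMIs, among members and all genes alike. Intervals were exact (scipy 1.17.1): Poisson for levels, Clopper-Pearson for shares and conditional binomial for ratios. Members with 50 UMIs were named. From partner lists, the gene with the highest level in fibroblast-like cells and up to 2 genes with the highest and lowest ratios in a class were named. Col4a5, Col4a6, Col1a2 and Col3a1 promoters were picked after their values were seen. Of the members, 35 matched a RefSeq promoter window and all 44 a GENCODE M21 gene. The ratio step was tested on simulated data.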

Additional observations from a re-analysis of the deposited data

Results flagged for a closer look

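For 2 members the injured over uninjured ratios of a pair of classes lay on opposite sides, and the difference between the classes was not tested. Col11a1 was higher in injured astrocyte-like cells (ratio 8.32) and lower in injured fibroblast-like cells (ratio 0.271), a gap of 4.73 on the log2 scale. Col8a1 was higher in injured ependymal-like cells (ratio 5.89) and lower in injured fibroblast-like cells (ratio 0.446), a gap of 3.65 on the log2 scale. For Col8a1 all 3 uninjured ependymal-like UMIs came from 1 cell, and 1 cell held 39.6% of the injured fibroblast-like UMIs.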

How the results depend on the processing

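No paired analysis was possible because there was 1 library per condition. The largest changes came with fibroblast-like cells, whose log2 ratios were 0.32 (fibrillar), 0.16 (basement membrane) and -0.32 (other). Without the upper UMI limit they were 0.21, -0.46 and -0.87, the fibrillar level after injury was 6051 CPM, and 11 fibroblast-like and 2 ependymal-like members were lower. Without the 5% of cells with the highest Scrublet scores, which took 11 of the 43 injured fibroblast-like cells, they were 0.52, 0.55 and -0.062, the level was 7600 CPM, and 0 astrocyte-like members were lower. In male cells alone they were 0.65, 0.55 and 0.27, the level was 7954 CPM, the astrocyte-like ratios were -0.13 (basement membrane) and 0.83 (other), 0 astrocyte-like members were lower, and injured endothelial-like basement membrane collagen was 969 CPM. With mitochondrial and ribosomal genes left out of the total, the fibrillar ratio was 0.42, with 8101 CPM injured and 6051.5 CPM uninjured, 0 astrocyte-like members were lower, endothelial-like basement membrane collagen was 1495.5 CPM after injury, and astrocyte-like fibrillar collagen was 360.0 and 195.0 CPM, injured and uninjured. Without the cell with most collagen UMIs the fibrillar ratio was 0.22 and the level 5900 CPM. Type IV alone gave 0.68.

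Counts of calls followed the UMI minimum. At 5 UMIs, 7 ependymal-like members were higher and 4 lower, and 10 astrocyte-like and 6 microglia-like members were higher; at 50, 0 microglia-like members were lower. At Leiden resolution 1.0, 2 astrocyte-like members were higher and 0 lower, and with 10 CPM added 3 and 0. With 3 counts in place of 0 and no CPM added, chosen together after seeing the data, 2 ependymal-like members were lower, Col4a2 and Col23a1, neither of them at 0, so that leaving out the added CPM moved them. Shares of cells followed depth. Thinned to 1000 UMIs, astrocyte-like shares for Col1a2 were 8.24% after injury and 6.46% without, and ependymal-like shares for Col4a5 were 10.5% and 0%. Asking for 2 UMIs gave 10.2%, 3.31%, 33.3% and 0%. The cause of these changes was not tested. Of 445 values of single genes under an alternative, 409 stayed within the counting interval and 36 did not. None of the genes called past 2-fold changed direction, while some within 2-fold did, as fibroblast-like Col4a5, Col4a6, Col13a1 and Col22a1 without the upper limit. On the other side of 2-fold in at least 1 alternative were 6 of 22 called genes, fibroblast-like Col12a1 and Col18a1 and astrocyte-like Col5a1, Col5a2, Col11a2 and Col12a1. Counting the unnamed clusters as astrocyte-like was also tried after seeing the data. The 31 uninjured ependymal-like and 26 endothelial-like cells limit what those classes can show.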
